A study of Solanum lycopersicum with 17 samples.

Results

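The B-class genes of tomato are the MADS-box genes that give petals and stamens their identity. They were followed here in floral buds of a male-sterile and a male-fertile line. The 4 genes were taken by identifier, whatever their values, from the 34727 gene models of each table: TM6 (Solyc02g084630, chromosome 2) and TAP3 (Solyc04g081000, chromosome 4) of the APETALA3 lineage, and Solyc08g067230 (chromosome 8) and Solyc06g059970 (chromosome 6), both PISTILLATA-type. Whole floral buds of the male-sterile line ms1035 and the male-fertile line T-1082 were sampled at stages 1, 2 and 3, and RNA was extracted with Trizol for RNA-seq. There were 17 libraries: 9 of the sterile line, as replicates 1 to 3 of each stage, and 8 of the fertile line, as replicates 2 and 3 of stage 1 and replicates 1 to 3 of stages 2 and 3. The labels number the stages without defining them and give the lines by name and phenotype alone. The fertile stage 1 replicate 1 library is not analysed here. The labels call the libraries biological replicates but do not say whether they came from separate plants, so a p-value here reflects the spread of these samples alone.

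In the ABC model of the flower, B-class proteins specify petals where they act with A-class proteins and stamens where they act with the C-class protein AGAMOUS, and SEPALLATA-type E-class proteins join both complexes. APETALA3-lineage and PISTILLATA-lineage proteins work as heterodimers, so each partner is needed for the other's function. Tomato kept a pair of genes in each lineage: in the APETALA3 lineage, TAP3 is the counterpart of the Arabidopsis and snapdragon genes APETALA3 and DEFICIENS and acts in both petals and stamens, while TM6 is an older form that Arabidopsis has lost and that acts mainly in stamens.

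Libraries held 499608 to 817548 assigned reads, and between 0.0550% and 0.279% of them came from the 4 B-class genes. All B-class reads were uniquely assigned (0 non-unique reads for each gene), at 56 to 885 reads per gene and library. The buds carried floral MADS-box transcripts in both lines. Over 10 tapetum genes, the cells that feed the pollen, the summed level ranged from 4.87 to 33.2, 0 to 25.5 and 3.18 to 11.9 CPM (reads scaled to the assigned reads of the library) in sterile buds at stages 1, 2 and 3. In fertile buds it ranged from 1908 to 4990, 2280 to 13548 and 769 to 4542 CPM. Of these 10 genes, 7, 3 and 5 had no read in any sterile library at stages 1, 2 and 3, and 0, 0 and 2 had none in any fertile library. The tapetum lies in the stamen, an organ that the B-class genes specify, and its part in the B-class differences below was not tested. In whole buds, fewer cells of a type and less RNA per cell cannot be told apart.

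All 4 genes ranked among the more abundant transcripts of the buds. Levels are compared between genes as RPKM, reads scaled by coding length and library total. Over the 17 libraries Solyc08g067230 averaged 894 RPKM and ranked 99th of all genes. TAP3 averaged 476 RPKM (rank 278) and Solyc06g059970 averaged 425 RPKM (rank 342). TM6 was the least abundant of the 4, with 229 RPKM and rank 763. TM6 also varied least over the 17 libraries, a spread that includes line and stage differences. Its coefficient of variation was 28.2%, against 54.3% for Solyc06g059970, 60.3% for Solyc08g067230 and 64.2% for TAP3. Among replicates, TM6 had the lowest coefficient of the 4 genes at stages 1 and 3 of both lines, but not at stage 2 of either. At fertile stage 2 it had the highest, 46.5%, against 9.78% for TAP3, 31.7% for Solyc08g067230 and 40.4% for Solyc06g059970.

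**Figure D1:**
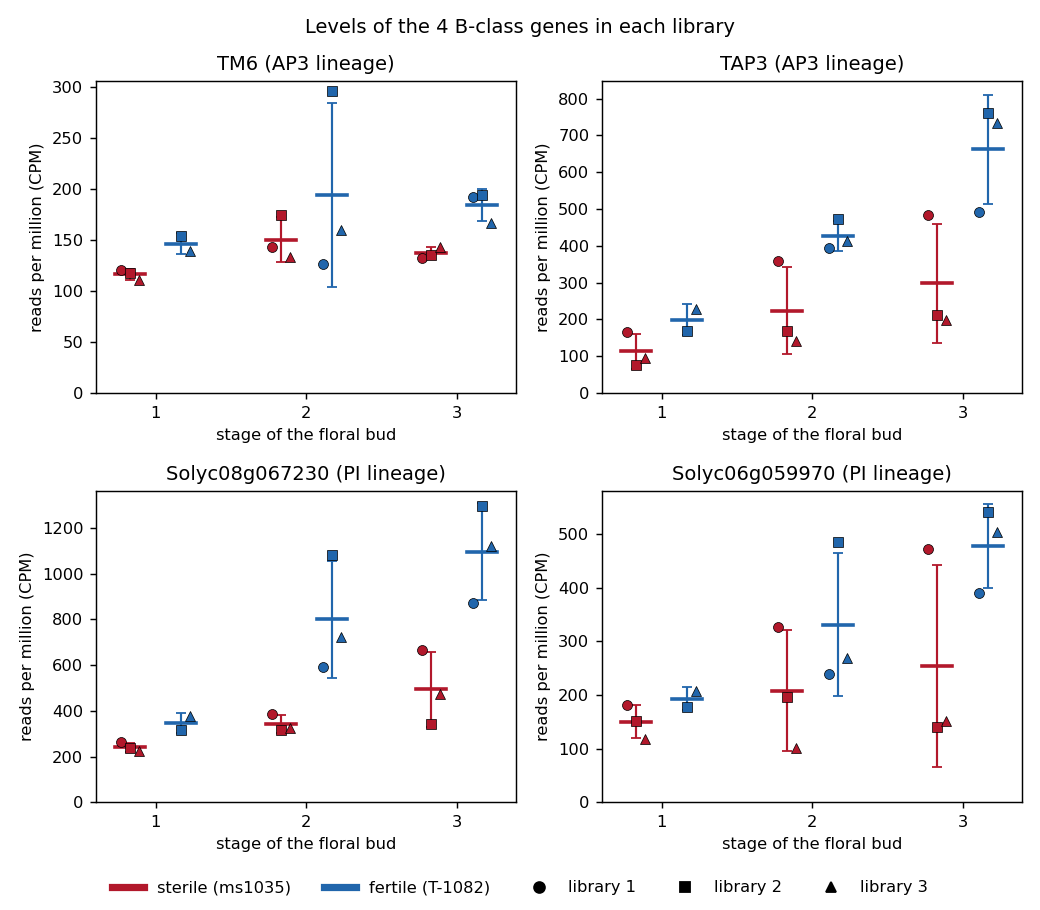
CPM of each B-class gene (1 panel each) in every library, by stage, with sterile buds left of fertile buds; symbols are libraries, horizontal lines group means and vertical bars SDs. TAP3 and Solyc08g067230 show no overlap between the lines at any of the 3 stages, while sterile replicate 1 stands above the other sterile libraries for TAP3, Solyc08g067230 and Solyc06g059970 at stages 2 and 3.

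TAP3 was lower in sterile buds over the 3 stages together, at about 49.4% of the fertile level, and in every stage all sterile libraries lay below all fertile ones. At stage 1 TAP3 had 166, 76.0 and 95.7 CPM in sterile replicates 1, 2 and 3, and 169 and 228 CPM in fertile replicates 2 and 3. At stage 2 it had 360, 168 and 142 CPM in sterile replicates 1, 2 and 3, and 393, 473 and 414 CPM in fertile replicates 1, 2 and 3. At stage 3 it had 484, 211 and 197 CPM in sterile replicates, and 491, 761 and 734 CPM in fertile replicates, in the same order. The sterile library closest to the fertile ones was replicate 1 at each stage. At stage 1 it lay just under fertile replicate 2, and at stage 3 just under fertile replicate 1. CPM leave out the TMM library factors of the test, 0.901 to 1.09, so such narrow gaps could depend on the scaling. Means were 113 ± 47.3 CPM in sterile and 199 ± 41.7 CPM in fertile buds at stage 1 (SD, n = 3 and 2), 223 ± 119 and 427 ± 41.7 CPM at stage 2 (n = 3 each), and 298 ± 162 and 662 ± 149 CPM at stage 3 (n = 3 each). The mean difference over the stages was -1.02 log2 (SE 0.23, 95% interval -1.51 to -0.52; edgeR quasi-likelihood test, Benjamini-Hochberg adjusted p = 0.00994). At single stages TAP3 did not pass, with -0.88 (SE 0.44), -0.99 (SE 0.39) and -1.18 (SE 0.39) log2 at stages 1, 2 and 3 and edgeR adjusted p = 0.531, 0.211 and 0.220. The mean call was lost, at -0.74 log2 and edgeR adjusted p = 0.204, when all libraries numbered 3 were left out, and over its 25 alternatives the adjusted p ranged from 0.000251 to 0.204. With libraries of the same line and number taken as correlated (0.254 over all genes), an alternative chosen after seeing the data, it was -1.08 log2 (limma adjusted p = 0.0213). Without the 3 sterile libraries numbered 1, also chosen after seeing the data, TAP3 passed at stages 2 and 3 as well, at -1.47 log2 (edgeR adjusted p = 0.0285) and -1.74 log2 (edgeR adjusted p = 0.0218). Over all alternatives the adjusted p ran from 0.0285 to 0.486 at stage 2 and from 0.0218 to 0.668 at stage 3.

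TM6, the other APETALA3-lineage gene, had smaller estimated differences between the lines than TAP3 and did not pass. The difference between these genes was tested only through their ratio, given below. At stage 1 TM6 had 121, 118 and 110.3 CPM in sterile replicates 1, 2 and 3, and 153 and 139 CPM in fertile replicates 2 and 3. At stage 2 it had 143, 175 and 133 CPM in sterile replicates, and 126, 296 and 159 CPM in fertile replicates 1, 2 and 3. At stage 3 it had 132, 135 and 143 CPM in sterile replicates, and 192, 194 and 166 CPM in fertile replicates. All sterile libraries lay below all fertile ones at stages 1 and 3, and the lines overlapped at stage 2, where fertile replicate 2 stood far above the other libraries. Group means were 116 ± 5.33 CPM in sterile and 146 ± 9.89 CPM in fertile buds at stage 1 (SD, n = 3 and 2), 150.1 ± 21.8 and 194 ± 90.1 CPM at stage 2 (n = 3 each), and 137 ± 5.64 and 184 ± 15.5 CPM at stage 3 (n = 3 each). The log2 difference was -0.39, -0.40 and -0.45 at stages 1, 2 and 3 (SE 0.28, 0.25 and 0.26; edgeR adjusted p = 0.751, 0.517 and 0.565). Its mean over the stages was -0.41 (SE 0.15, 95% interval -0.73 to -0.09; edgeR adjusted p = 0.102, unadjusted p = 0.0146). Without fertile stage 2 replicate 2 the stage 2 difference was 0.0053 log2 (edgeR adjusted p = 0.999, against 0.248 to 0.999 over all alternatives). The mean over stages passed without fertile stage 2 replicate 1, at -0.49 log2 (edgeR adjusted p = 0.0370, against 0.0370 to 0.360 over its alternatives).

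Solyc08g067230, the more abundant PISTILLATA-type gene, was lower in sterile buds at stage 2 and over the 3 stages together. At stage 1 it had 262, 236 and 225 CPM in sterile replicates 1, 2 and 3, and 315 and 378 CPM in fertile replicates 2 and 3. At stage 2 it had 387, 316 and 324 CPM in sterile replicates, and 592, 1083 and 725 CPM in fertile replicates 1, 2 and 3. At stage 3 it had 668, 342 and 475 CPM in sterile replicates, and 872, 1295 and 1122 CPM in fertile replicates. The lines did not overlap at any stage. Means were 241 ± 18.8 CPM in sterile and 346 ± 44.6 CPM in fertile buds at stage 1 (SD, n = 3 and 2), 343 ± 38.7 and 799.7 ± 254 CPM at stage 2 (n = 3 each), and 495 ± 164 and 1096 ± 213 CPM at stage 3 (n = 3 each). The log2 difference was -0.58 (SE 0.31; edgeR adjusted p = 0.603) at stage 1, -1.25 (SE 0.28, 95% interval -1.85 to -0.66; edgeR adjusted p = 0.0216) at stage 2 and -1.16 (SE 0.28; edgeR adjusted p = 0.0672) at stage 3. Over the stages it was -0.999 (SE 0.17, 95% interval -1.35 to -0.64; edgeR adjusted p = 0.00105), which is 50.1% of the fertile level. This mean difference passed under all 25 alternatives tried, with adjusted p from 5.62e-07 to 0.0387, and was -0.97 log2 with same-numbered libraries of a line taken as correlated (limma adjusted p = 0.0114). The stage 2 call was less firm: it was lost without sterile stage 2 replicate 1, 2 or 3 (edgeR adjusted p = 0.0705, 0.104 and 0.0517) and without fertile stage 2 replicate 2 (-1.01 log2, edgeR adjusted p = 0.120). It was also lost when only stage 2 libraries were fitted (edgeR adjusted p = 0.0685), without all libraries numbered 3 (0.103) and without the 3 sterile libraries numbered 1 (0.0640), and the lowest over all alternatives was 0.000922. At stage 3 it passed by DESeq2 (adjusted p = 0.00587) and in edgeR without sterile stage 3 replicate 1 (adjusted p = 0.0344), with 0.00587 to 0.484 over all alternatives.

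Solyc06g059970, the second PISTILLATA-type gene, did not pass between the lines. Its relative place in gene order along chromosome 6 is within 3.04% of that of the RefSeq gene TPI, which does not settle identity. At stage 1 Solyc06g059970 had 182, 152 and 118 CPM in sterile replicates 1, 2 and 3, and 179 and 208 CPM in fertile replicates 2 and 3. At stage 2 it had 326, 197 and 102 CPM in sterile replicates, and 240.0, 484 and 268 CPM in fertile replicates 1, 2 and 3. At stage 3 it had 472, 141 and 151 CPM in sterile replicates, and 390.0, 540.4 and 504 CPM in fertile replicates. The lines overlapped at all 3 stages, where sterile replicate 1 alone reached the fertile range. Means were 151 ± 31.7 CPM in sterile and 193 ± 20.9 CPM in fertile buds at stage 1 (SD, n = 3 and 2), 208 ± 112 and 331 ± 134 CPM at stage 2 (n = 3 each), and 255 ± 188 and 478 ± 78.4 CPM at stage 3 (n = 3 each). The log2 difference was -0.42, -0.72 and -0.93 at stages 1, 2 and 3 (SE 0.48, 0.43 and 0.43; edgeR adjusted p = 0.875, 0.485 and 0.443). Its mean was -0.69 (SE 0.26, 95% interval -1.24 to -0.15; edgeR adjusted p = 0.108). Without sterile stage 3 replicate 1 the mean was -0.96 log2 (edgeR adjusted p = 0.00875). Without all 3 sterile libraries numbered 1 it was -1.15 log2 (edgeR adjusted p = 0.00404), and the stage 3 difference was -1.75 log2 (edgeR adjusted p = 0.0383). Over all alternatives the adjusted p ran from 0.00404 to 0.496 for the mean and from 0.0383 to 0.781 for stage 3.

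The number of B-class genes called between the lines was 0 of 4 at stage 1, 1 of 4 at stage 2, 0 of 4 at stage 3 and 2 of 4 over the stages together, all lower in sterile buds. Of the 13568 tested genes, edgeR called 1.16%, 2.83%, 0.737% and 9.74% in these comparisons, and the shares called lower were 2.23% at stage 2 and 6.25% over the stages together. For the counts of 0, no B-class gene at stage 1 and 3 of 4 at stage 3 had an unadjusted p under 0.05, and DESeq2 called 0 and 1. Of all 13568 tested genes, 1367 and 1468 had such a p, and DESeq2 called 234 and 179. All sterile libraries lay below all fertile ones for 3, 2 and 3 of the 4 genes at stages 1, 2 and 3, against 12.4%, 8.65% and 7.65% of all tested genes. The median log2 difference of the 4 genes over the stages was -0.84, against 0.02 for all tested genes. Sterile means as a share of fertile means were 56.6%, 52.3% and 44.9% for TAP3 at stages 1, 2 and 3, and 69.7%, 42.8% and 45.2% for Solyc08g067230. They were 77.9%, 63.0% and 53.3% for Solyc06g059970 and 79.5%, 77.5% and 74.3% for TM6. Whether the line difference depended on the stage was tested with 1 F-test per gene, and 0 of the 4 genes passed (edgeR adjusted p = 1 for each, unadjusted p = 0.263 to 0.984), as did 0% of all genes. At an unadjusted p under 0.05 this test had 0 of the 4 genes and 365 of all genes, and DESeq2 called 0 of the 4.

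**Figure D2:**
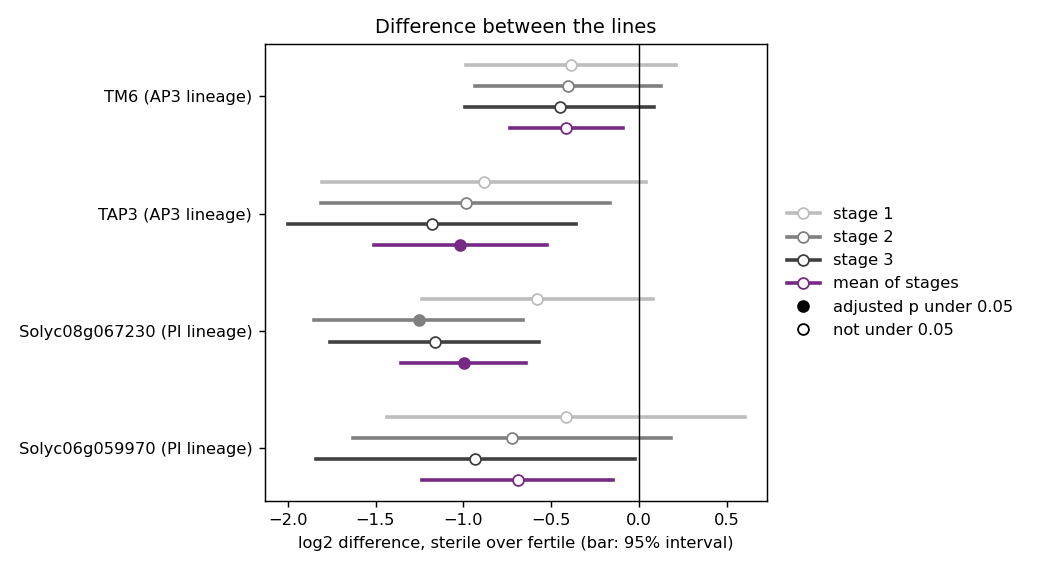
Log2 difference of each B-class gene, sterile over fertile, at stages 1, 2 and 3 and over the stages together, with 95% intervals from edgeR. All points lie below 0, and over the stages together TAP3 at -1.02 and Solyc08g067230 at -0.999 lie further from 0 than TM6 at -0.41.

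From stage 1 to stage 3, TAP3 rose in fertile buds and Solyc08g067230 rose in both lines. In sterile buds Solyc08g067230 was 1.19 log2 higher at stage 3 than at stage 1 (SE 0.28, 95% interval 0.59 to 1.78; edgeR adjusted p = 0.0391), and in fertile buds 1.77 log2 higher (SE 0.33, 95% interval 1.07 to 2.47; edgeR adjusted p = 0.00631). TAP3 was 1.84 log2 higher in fertile buds (SE 0.46, 95% interval 0.87 to 2.81; edgeR adjusted p = 0.0260), and its value in sterile buds was 1.55 log2 (SE 0.40; edgeR adjusted p = 0.0558). That sterile value passed under 7 of its 25 alternatives, among them DESeq2 (adjusted p = 0.0107) and edgeR with no low-count filter (adjusted p = 0.0106), and its adjusted p ran from 0.00033 to 0.321 over all of them. Neither TM6 nor Solyc06g059970 passed in either line. TM6 stood at 0.37 log2 in sterile buds (SE 0.26; edgeR adjusted p = 0.510) and 0.44 log2 in fertile buds (SE 0.29; edgeR adjusted p = 0.421). Solyc06g059970 stood at 0.90 log2 in sterile buds (SE 0.44; edgeR adjusted p = 0.311) and 1.41 log2 in fertile buds (SE 0.50; edgeR adjusted p = 0.104). The fertile value of Solyc06g059970 passed under 4 of its 25 alternatives, among them no low-count filter (edgeR adjusted p = 0.0452) and leaving out sterile stage 3 replicate 1 (edgeR adjusted p = 0.0391), with adjusted p from 0.0035 to 0.355 over all of them. The 1 call of 4 in sterile and 2 calls of 4 in fertile buds stand against 2.06% and 6.31% of all tested genes, of which 1.43% and 3.45% were called higher at stage 3.

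The stage calls rested on few libraries. In fertile buds, both were lost without stage 1 replicate 2 (edgeR adjusted p = 0.183 for TAP3 and 0.0737 for Solyc08g067230) or replicate 3 (0.116 and 0.0563), the only 2 libraries of that stage, and without all libraries numbered 3 (0.203 and 0.139). TAP3 was also lost without fertile stage 3 replicate 2 (0.0682) or replicate 3 (0.0740). In sterile buds the Solyc08g067230 call was lost without stage 1 replicate 1, 2 or 3 (edgeR adjusted p = 0.0885, 0.207 and 0.106), stage 3 replicate 1 or 3 (0.231 and 0.0551) or stage 2 replicate 1 (0.0520). It was likewise lost without fertile stage 1 replicate 2 or 3, stage 2 replicate 3 or stage 3 replicate 3 (0.0502 to 0.0598), without all libraries numbered 3 (0.167) and without the 3 sterile libraries numbered 1 (0.378). Over all alternatives the lowest adjusted p was 4.85e-05 for TAP3 in fertile buds, and 0.00387 and 6.83e-06 for Solyc08g067230 in sterile and fertile buds.

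Between neighbouring stages 0 of the 4 genes passed in either line in the main fit, which takes libraries as independent. In sterile buds, stage 2 over stage 1 gave log2 values of 1.07 for TAP3, 0.60 for Solyc08g067230, 0.54 for Solyc06g059970 and 0.46 for TM6. In fertile buds the same step gave 1.18 for TAP3, 1.28 for Solyc08g067230, 0.84 for Solyc06g059970 and 0.47 for TM6. Stage 3 over stage 2 gave 0.36 to 0.58 for TAP3, Solyc08g067230 and Solyc06g059970 in sterile buds and 0.49 to 0.67 in fertile buds, while TM6 stood at -0.08 and -0.03. Without sterile stage 3 replicate 1, the sterile step to stage 3 turned to -0.078 for TAP3 and -0.44 for Solyc06g059970. The fertile value of TM6 for this step was 0.37 without stage 2 replicate 2 and 0.024 without stage 3 replicate 3. Among all tested genes edgeR called 0% for both sterile steps, 0.155% for stage 2 over stage 1 and 0.236% for stage 3 over stage 2 in fertile buds. In each first step 2 of the 4 genes had an unadjusted p under 0.05, and in each later step 0 did. Of all 13568 tested genes, 927 in sterile and 1262 in fertile buds had such a p in the first step. In the later step 782 and 1169 did. DESeq2 called 1 of the 4 in the first fertile step, Solyc08g067230 (adjusted p = 0.0159, against 0.00720 to 0.586 over all alternatives), and 0 in the other 3 steps. Of all tested genes DESeq2 called 74 in the first fertile step. With the replicate number fitted as a block within each line, chosen after seeing the data, TAP3 passed in both first steps. Its edgeR adjusted p was 0.0216 in sterile and 0.00720 in fertile buds. Solyc08g067230 then passed in the first fertile step (edgeR adjusted p = 0.00720).

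Ordered by mean CPM, TAP3 and Solyc06g059970 shared 1 order of the 6 groups: sterile stage 1, fertile stage 1, sterile stage 2, sterile stage 3, fertile stage 2 and fertile stage 3. For both genes the neighbours from fertile stage 1 up to fertile stage 2 differed by less than the larger of their SDs. For Solyc08g067230 the order was sterile stage 1, sterile stage 2, fertile stage 1, sterile stage 3, fertile stage 2 and fertile stage 3, and the steps from sterile stage 2 to fertile stage 1 and from there to sterile stage 3 were within the larger SD. For TM6 the order was sterile stage 1, sterile stage 3, fertile stage 1, sterile stage 2, fertile stage 3 and fertile stage 2. In TM6 the gaps from sterile stage 3 to fertile stage 1, from there to sterile stage 2, and between both highest groups were within the larger SD. Sterile stage 1 was the lowest group for each of the 4 genes.

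Within the APETALA3 lineage, TM6 made up more of the pair in sterile than in fertile buds in the group means, a difference that depended on how the libraries were counted. TM6 held 52.5%, 42.9% and 34.5% of the pair's summed RPKM in sterile buds at stages 1, 2 and 3, and 43.0%, 30.5% and 22.5% in fertile buds. As a log2 ratio of TM6 to TAP3 within each library, sterile replicates 1, 2 and 3 had -0.44, 0.65 and 0.22 at stage 1, -1.32, 0.07 and -0.08 at stage 2, and -1.86, -0.62 and -0.44 at stage 3. Fertile libraries had -0.12 and -0.69 in replicates 2 and 3 at stage 1, -1.62, -0.66 and -1.36 in replicates 1, 2 and 3 at stage 2, and -1.34, -1.95 and -2.12 at stage 3. The lines overlapped at each stage, and sterile replicate 1 had the lowest ratio of the sterile libraries every time. Averaged over the stages, the ratio was 0.72 log2 (1.65-fold) higher in sterile than in fertile buds (two-sided exact permutation test with line labels exchanged within stages, p = 0.02275, adjusted over the 2 ratios p = 0.0455; the smallest p of its 4000 arrangements is 0.00025). The difference was 0.62 log2 without fertile stage 1 replicate 3 (exact permutation p = 0.0512), 0.39 without all libraries numbered 3 (exact permutation p = 0.352) and 1.11 without the 3 sterile libraries numbered 1 (exact permutation p = 0.00333). Over all alternatives p ranged from 0.00333 to 0.352. This test takes the libraries as independent, while same-numbered libraries of a line varied together between stages 2 and 3 (correlation of deviations 0.356 to 0.461 in sterile and 0.190 to 0.317 in fertile buds). Between stages 1 and 2 these correlations were 0.073 to 0.547 in sterile and 0.294 to 0.308 in fertile buds. Averaged over stages 2 and 3 for each number, the ratio was -1.59, -0.27 and -0.26 in sterile replicates 1, 2 and 3, against -1.48, -1.30 and -1.74 in fertile replicates, so that sterile replicate 1 lay within the fertile range. Over these 3 sterile and 3 fertile values the difference was 0.80 log2 and did not pass (two-sided exact permutation test, p = 0.3, where the smallest possible is 0.1), a comparison chosen after seeing the data.

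In the group means the same ratio fell with stage in both lines, a comparison added after seeing the data. Group means of the log2 ratio of TM6 to TAP3 were 0.14, -0.44 and -0.97 at stages 1, 2 and 3 in sterile buds and -0.41, -1.21 and -1.80 in fertile buds. Stage 3 minus stage 1, averaged over the lines, was -1.26 log2 (two-sided exact permutation test, p = 0.005, the smallest that 200 arrangements allow, adjusted over the 2 ratios p = 0.01). Neither line was tested alone, and the test takes libraries as independent. Same-numbered libraries of stages 1 and 3 had correlations of deviations of 0.013 to 0.384 in sterile and 0.035 to 0.182 in fertile buds. Without all libraries numbered 3 the value was -1.43 log2 (exact permutation p = 0.0556).

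**Figure D3:**
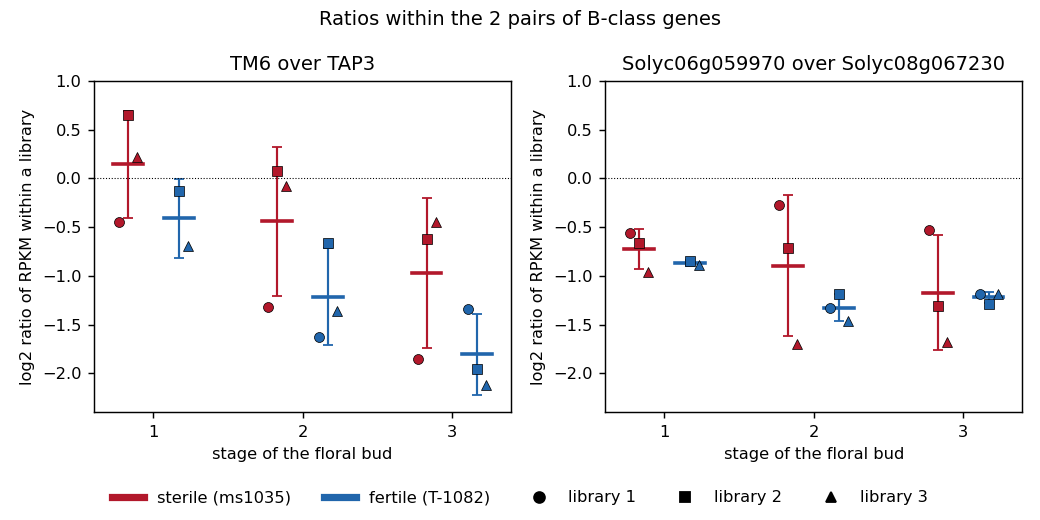
Log2 ratio of RPKM within each library for TM6 over TAP3 and for Solyc06g059970 over Solyc08g067230, by stage, with sterile buds left of fertile buds; symbols are libraries, horizontal lines group means and vertical bars SDs. The ratio of TM6 to TAP3 averaged 0.72 log2 higher in sterile buds, while the PISTILLATA-type ratio differed by 0.21 log2 and its sterile libraries spread more widely at stages 2 and 3.

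For the PISTILLATA-type pair the difference between the lines did not pass. The log2 ratio of Solyc06g059970 to Solyc08g067230 averaged -0.72, -0.89 and -1.17 at stages 1, 2 and 3 in sterile buds and -0.87, -1.33 and -1.22 in fertile buds, a difference of 0.21 between the lines (two-sided exact permutation test, p = 0.2665, adjusted over the 2 ratios p = 0.2665). Solyc06g059970 held 37.7%, 35.6% and 31.2% of the pair's RPKM in sterile buds and 35.4%, 28.5% and 30.0% in fertile buds. The sterile libraries ran from -1.70 to -0.28 at stage 2 and from -1.68 to -0.53 at stage 3, with replicate 1 the highest, while fertile libraries ran from -1.46 to -1.19 and from -1.29 to -1.18. Without the 3 sterile libraries numbered 1 the difference was -0.031 (exact permutation p = 0.838), and without all libraries numbered 3 it was 0.44 (exact permutation p = 0.0370), the ends of the range over all alternatives. Stage 3 minus stage 1 was -0.40 log2 (two-sided exact permutation test, p = 0.055, adjusted p = 0.055).

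Summed over each lineage, the APETALA3-type pair stayed at 0.457 to 0.667 times the RPKM of the PISTILLATA-type pair across the 17 libraries. The group means of this quotient lay between 0.5003 and 0.627. The 4 genes together had 950, 1411 and 1812 RPKM in sterile buds at stages 1, 2 and 3, and 1352, 2683 and 3708 RPKM in fertile buds, as group means.

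Over the 17 libraries, which share line and stage differences, the log2 levels of TAP3, Solyc08g067230 and Solyc06g059970 ran closely together. Pearson's r was 0.94 between TAP3 and Solyc08g067230, 0.92 between TAP3 and Solyc06g059970 and 0.88 between the PISTILLATA-type genes. TM6 had r of 0.67 with TAP3, 0.79 with Solyc08g067230 and 0.68 with Solyc06g059970. After the group means were taken out, r was 0.67, 0.84 and 0.74 among the first 3 genes. For TM6 it was -0.04 with TAP3, 0.49 with Solyc08g067230 and 0.27 with Solyc06g059970.

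Petal genes of the carotenoid pathway and its esters, 4 in all, were read as a check on petal content. Their summed level was 108, 91.8 and 109 CPM in sterile replicates 1, 2 and 3 at stage 1, against 117 and 116 CPM in fertile replicates 2 and 3. It was 144, 120 and 83.8 CPM in sterile replicates at stage 2, against 304, 205 and 113 CPM in fertile replicates, and 807, 265 and 93.8 CPM in sterile replicates at stage 3, against 350.4, 1954 and 758 CPM in fertile replicates. All 4 petal genes had reads in each group of line and stage. Sterile replicate 1 was the highest sterile library at stages 2 and 3 for the sum of these genes, though not for each of them. It was also the highest there for TAP3, Solyc08g067230 and Solyc06g059970, and was not for TM6. It was the lowest sterile library at each stage for 2 Rubisco small subunit genes of green tissue, which summed to 3256, 4288 and 3695 CPM in sterile replicate 1 at stages 1, 2 and 3, against 8164, 10806 and 11504 CPM in sterile replicate 3. Over 4 carpel genes the sum ranged from 16.97 to 74.7 CPM in sterile and from 23.4 to 39.8 CPM in fertile libraries, and 1 of the 4 had no read in sterile buds at stage 3. Sterile replicate 1 was the lowest sterile library at each stage for this sum too, at 22.7, 16.97 and 23.9 CPM at stages 1, 2 and 3. Sterile replicate 2 had 49.8, 49.0 and 33.8 CPM, and sterile replicate 3 had 58.4, 74.7 and 41.3 CPM. LAT52, a late pollen gene, reached 1.62 CPM at most in sterile buds, and 5.12 to 22.0 CPM in fertile buds at stage 3. The part of petal, green tissue, carpel and pollen content in the B-class differences was not tested.

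Of the genes that act beside or above the B class, TAG1, TM5 and TM29 were also lower in sterile buds over the stages together. TAG1 (Solyc02g071730), the C-class AGAMOUS gene that meets the B class in stamens, averaged 164 ± 14.5, 269 ± 36.5 and 298 ± 60.6 CPM in sterile buds at stages 1, 2 and 3 (SD, n = 3 each), and 226 ± 51.3 (n = 2), 589 ± 188 and 588 ± 90.1 CPM (n = 3 each) in fertile buds. Its mean difference was -0.89 log2 (SE 0.16; edgeR adjusted p = 0.00154). TM29 (Solyc02g089200), an E-class SEPALLATA-type gene, averaged 240.5 ± 44.2, 329.5 ± 23.7 and 377 ± 65.6 CPM in sterile buds and 281 ± 41.4, 559.8 ± 178 and 673 ± 85.6 CPM in fertile buds, a mean difference of -0.64 log2 (SE 0.15; edgeR adjusted p = 0.0130). TM5 (Solyc05g015750), also E class, averaged 157 ± 37.8, 178 ± 15.1 and 193 ± 6.31 CPM in sterile buds and 177 ± 17.2, 303 ± 77.0 and 342 ± 35.3 CPM in fertile buds, a mean difference of -0.62 log2 (SE 0.14; edgeR adjusted p = 0.0100). TAG1 also passed at stage 2, at -1.15 log2 (SE 0.26; edgeR adjusted p = 0.0239). In fertile buds TAG1, TM29 and TM5 were higher at stage 3 than at stage 1, by 1.49, 1.37 and 1.06 log2 (edgeR adjusted p = 0.0101, 0.0142 and 0.0316).

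Counted by class over the stages together, 1 of 3 tested C and D class genes (of 4 listed) and 2 of 5 tested E-class genes (of 6 listed) were called, all lower in sterile buds, against 9.74% of all tested genes called and 6.25% called lower. The median log2 differences of these lists were -0.21 and -0.21, against 0.02 for all tested genes. TAGL1 (Solyc07g055920), an AGAMOUS-clade gene known from fruit, stood at -0.21 log2 (SE 0.21; edgeR adjusted p = 0.584). MBP3 (Solyc06g064840), an ovule gene of the D class, stood at 0.74 log2 (SE 0.39; edgeR adjusted p = 0.272), and EJ2 (Solyc03g114840), an E-class gene known from sepal growth, stood at -0.18 (SE 0.23; edgeR adjusted p = 0.684). Of the APETALA1 and FRUITFULL clade, genes of sepal and inflorescence identity and of fruit, 0 of 4 tested genes (of 5 listed) were called by edgeR, with a median of -0.52. An unadjusted p under 0.05 was reached by 3 of the 4, against 3167 of all 13568 tested genes. DESeq2 called 0 of the 4, against 1379 of all. Its 3 most abundant members stood at -0.07 log2 (Solyc05g056620), -0.47 (FUL1, Solyc06g069430) and -0.58 (FUL2, Solyc03g114830), with edgeR adjusted p = 0.840, 0.153 and 0.0545. AGL6 (Solyc01g093960), known as a repressor of fruit set, stood at -0.10 log2 (edgeR adjusted p = 0.817), and the other gene of its list, Solyc03g019710, had too few reads for the test.

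Upstream of the B class, 2 of 4 regulators had enough reads for the test, and edgeR called 0 over the stages together. An unadjusted p under 0.05 was reached by 1 of the 2, against 3167 of all 13568 tested genes, and DESeq2 called 0. WUSCHEL (Solyc02g083950), the stem cell gene of the flower meristem, stood at -1.05 log2 (SE 0.38; edgeR adjusted p = 0.0960, unadjusted p = 0.0134). TERMINATING FLOWER (Solyc09g090180), an ALOG gene that times the flower's maturation, stood at 0.26 log2 (SE 0.33; edgeR adjusted p = 0.690). FALSIFLORA and ANANTHA, the counterparts of the Arabidopsis genes LEAFY and UFO that switch on APETALA3 there, had at most 16 reads in any group of line and stage and were not tested.

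**Figure D4:**
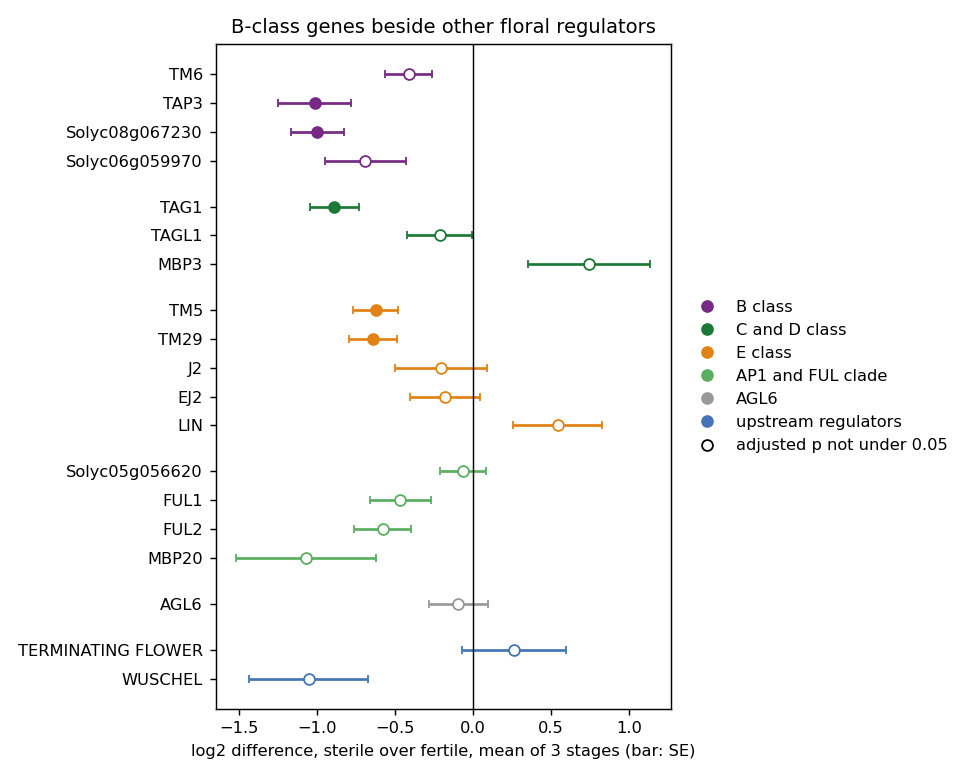
Log2 difference over the 3 stages together, sterile over fertile, with SEs as bars, from edgeR, for the B-class genes and the tested genes of the other floral classes. TAP3, Solyc08g067230, TAG1, TM5 and TM29 are the genes called, all lower in sterile buds.

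The genes most like each B-class gene over the 17 libraries were sought among the 9695 genes outside the B class that averaged 20 CPM or more, by Pearson's r of log2 CPM. For Solyc08g067230 the first was TM29 (r = 0.97), followed by Solyc01g005560 (0.96), Solyc09g091470 (0.95), Solyc02g079780 (0.95) and Solyc04g007960 (0.95); TAG1 ranked 16th (0.92) and TM5 19th (0.92). For TM6 they were Solyc02g069800 (0.85), Solyc02g071620 (0.82), Solyc01g094940 (0.82), TAG1 (0.81) and TM29 (0.80). For TAP3 they were Solyc05g006650 (0.96), Solyc09g092330 (0.94), Solyc02g024020 (0.94), Solyc11g072990 (0.94) and Solyc09g091470 (0.93). For Solyc06g059970 they were Solyc02g024020 (0.92), Solyc01g104950 (0.92), Solyc08g067260 (0.91), Solyc03g111730 (0.90) and Solyc10g078550 (0.90). Thus TAG1 and TM29 were among the 5 closest genes of TM6, and TM29 was the closest of Solyc08g067230, while the 5 named for TAP3 and for Solyc06g059970 held none of the listed regulators of the other floral classes. Among the B-class genes left out of this search, Solyc08g067230 was closer to TAP3 (0.941) than 3 of its 5 genes, and TAP3 was closer to Solyc06g059970 (0.918) than 4 of its 5. TAP3 and Solyc08g067230 shared Solyc09g091470 and TAP3 and Solyc06g059970 shared Solyc02g024020 among their 5. The libraries share line, stage and depth, so these values describe likeness of pattern.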

How the data were processed

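RNA-seq of tomato floral buds was analysed in 17 libraries, grouped by line and stage from the sample titles. The deposited tables hold, per the file headers, whole-number counts of total and unique gene reads, RPKM, and gene length in bases, another kind of value. Of 34727 lengths, 34726 divide by 3 and were taken as coding lengths. The deposited RPKM differed from a value recomputed from total reads for 0 genes. The sources used here do not name the aligner, the counter, the strandedness or the filters.

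The test on total gene reads was run in R 4.3.3 with edgeR 4.0.16 (TMM, filterByExpr, quasi-likelihood test) in 1 fit of 6 group coefficients over all libraries, with 11 residual degrees of freedom. The filter left 13568 genes, at least 97.0% of each library's reads and all 4 B-class genes. TMM factors were 0.901 to 1.09 and the common biological coefficient of variation was 0.291. Calls are at a Benjamini-Hochberg adjusted p under 0.05. The SE is the log2 value divided by the root of the F statistic. Log2 ratios within a library were compared by exact permutation with labels exchanged within stages. Both tests take libraries as independent. After seeing the data, limma 3.58.1 (voom) with an estimated correlation within line and number was added for the mean over stages, and 1 ratio per line and number. Alternatives were RLE factors, no filter, DESeq2 1.42.0, unique reads, a replicate block, each library left out, all libraries numbered 3 left out and, at a single stage, a fit of that stage alone. Chosen after seeing the data were a replicate block within each line, for comparisons over stages, and leaving out the 3 sterile libraries numbered 1. The script was tested on simulated data. With simulated 2-fold changes between the lines, edgeR recovered 12%, 14% and 26% at stages 1, 2 and 3, and 81% over the stages together. Not passing at a single stage is therefore weak evidence of no difference.

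The 4 genes, the gene lists and the rules were chosen with earlier results of these data known. Named beside the 4 genes are the 5 most alike of each outside the B class and up to 3 genes of each list by mean CPM. Names are from the literature: 0 RefSeq entries (assembly SLM_r2.1) carry these identifiers, 3 of the 4 B-class genes have a RefSeq symbol on the same chromosome, within 3.04% of gene order, and Solyc08g067230 has none. Solyc05g056620 and Solyc03g019710 differed in order by 73.4% and 50.8% from the RefSeq genes of their names and are given by identifier. Libraries with the same replicate number varied together between stages 2 and 3 of each line (correlation of deviations 0.356 to 0.461 in sterile and 0.190 to 0.317 in fertile buds). Between stages 1 and 2 these correlations were 0.073 to 0.547 in sterile and 0.294 to 0.308 in fertile buds. For stage 3 over stage 2 no B-class gene was called with or without the replicate block. Elsewhere the block added calls. These were Solyc08g067230 between the lines at stage 3 (edgeR adjusted p = 0.0378), Solyc06g059970 over the stages together (0.0310) and TAP3 for sterile stage 3 over stage 1 (0.0181).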

Additional observations from a re-analysis of the deposited data

How the results depend on the processing

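Of 44 gene results, 23 kept their direction and their side of the threshold under each alternative; among 1100 values, 8 turned direction, 28 lost and 27 gained a call. The cause of these changes was not tested. For the number of B-class genes called, leaving out single libraries gave 0 to 1 at stage 2, 0 to 1 at stage 3, 0 to 2 for sterile and 0 to 3 for fertile stage 3 over stage 1. At stage 2 the fits that gave 0 called 164 to 301 of all tested genes. For stage 3 over stage 1 the fits that gave 0 called 18 to 289 in sterile and 83 to 265 in fertile buds. Without all libraries numbered 3 the count was 0 at stage 2, 1 over the stages together, and 0 in sterile and 0 in fertile buds for stage 3 over stage 1. In that order, 436, 837, 224 and 28 of all 15105 tested genes were called. A fit of stage 2 alone gave 0, and called 237 of all 11515 tested genes. At stage 3 the count was 1 with no low-count filter, 1 with DESeq2, 1 with the replicate block and 2 without the 3 sterile libraries numbered 1. In that order, 305 of 23455, 179 and 221 of 13568, and 90 of 13673 tested genes were called. For sterile stage 3 over stage 1 the count was 2 with no filter, 2 with DESeq2, 2 with the replicate block, 2 with the block within each line and 0 without the 3 sterile libraries numbered 1. In that order, 528 of 23455, 444, 679 and 1037 of 13568, and 7 of 13673 tested genes were called. The block within each line gave 1 for sterile and 2 for fertile stage 2 over stage 1, and DESeq2 gave 1 for the fertile step. In that order, 93, 196 and 74 of 13568 tested genes were called.

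Leaving out single libraries moved TM6 at stage 2 between -0.63 and 0.0053 log2, the stage 3 minus stage 1 line difference of TAP3 between -0.85 and 0.082, sterile stage 3 over stage 2 between -0.078 and 0.95 for TAP3 and -0.44 and 0.81 for Solyc06g059970, and fertile stage 3 over stage 2 of TM6 between -0.27 and 0.37. That last value was 0.0029 with the replicate block and 0.037 with the block within each line.

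The line difference of the TM6 to TAP3 ratio was 0.62 to 0.87 when single libraries were left out, 0.39 without all numbered 3, 0.81 with the replicate block (exact permutation p = 0.0234) and 0.80 over stage 2 and 3 means per number (exact permutation p = 0.3). For Solyc06g059970 to Solyc08g067230 it was 0.10 to 0.34, 0.44 without all numbered 3, 0.19 with the block (exact permutation p = 0.344) and -0.031 without the 3 sterile libraries numbered 1. From stage 1 to 3, TM6 to TAP3 gave -1.40 to -1.04 and, without all numbered 3, -1.43 (exact permutation p = 0.0556, the smallest possible there). Solyc06g059970 to Solyc08g067230 gave -0.56 to -0.27, -0.40 with 0.5 reads added (exact permutation p = 0.045) and -0.52 without the 3 sterile libraries numbered 1 (exact permutation p = 0.0167).

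Between the lines, same-numbered libraries had correlations of deviations from -0.033 to 0.247, over 0.1 in 3 of 8 pairs (those numbered 3), so the numbers were not taken as pairs. With the replicate block Solyc06g059970 was called over the stages together (-0.84 log2, edgeR adjusted p = 0.0310), and TAP3 for sterile stage 3 over stage 1 (edgeR adjusted p = 0.0181). With the block within each line, stage 3 over stage 1 was called for TAP3 in sterile buds (edgeR adjusted p = 0.00033) and Solyc06g059970 in fertile buds (1.58 log2, edgeR adjusted p = 0.0035). With same-numbered libraries of a line correlated, limma called 304 genes over the stages together, against 1321 by edgeR.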
